A study of Mus musculus with 2 samples.

Results

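Actin cytoskeleton and motility genes are described here as a set of 44 genes, taken by symbol from the 31053 genes listed for each library. All 44 symbols were found, each once. The genes were chosen with earlier results of these data known. They fall into 13 roles, from the actin monomers themselves to the kinases that drive contraction. Cells build actin filaments from monomers, branch them with the Arp2/3 complex, extend them with formins, cap and sever them to recycle monomers, and pull on them with non-muscle myosin II. The small GTPases RhoA, Rac and Cdc42 switch these machines on at the membrane. In natural killer (NK) cells this network is known for moving the cell through tissue, for binding it to a target and for carrying lytic granules to the contact site.

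The cells were splenic NK cells of C57BL/6 mice, sorted by the study for CD27 and CD11b and profiled as single cells by counting unique molecular identifiers (UMIs), each marking the end of 1 transcript. In the floxed control (EP3F/F) the gene of the prostaglandin E2 receptor EP3, Ptger3, is flanked by recombination sites but intact. The NK knockout (NKp46CreEP3F/F) carries the same floxed alleles and Cre driven from NKp46, a receptor made by NK cells and some other innate lymphocytes. Each group was 1 library of cells pooled from 2 mice, and the labels give neither age nor sex. A single library a group allows neither a test nor an estimate of how animals vary: every interval here is a 95% interval for counting error alone, and genotype cannot be told apart from pool, preparation and depth.

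The control library held 69853026 UMIs in 11785 barcodes and the knockout library 42795121 in 10615, and 33 barcode sequences occurred in both. Ptger3 had 19 UMIs in the control and 0 in the knockout, which allows up to 3. Cells were assigned by UMIs of marker genes. NK cells numbered 10190 and 8918 (93.2% and 89.0% of cells kept, in the order control, knockout, as in every pair of values below), T cells 26 and 68, and myeloid cells 41 and 151. Markers that played no part in the assignment followed it: NK effector genes summed to 13101 and 15353 CPM (UMIs per 1000000) in NK cells but 681 and 1015 in T cells and 355 and 343 in myeloid cells. Macrophage genes summed to 11478 and 18517 CPM in myeloid cells and 6.15 and 14.4 in NK cells. A median NK cell carried 5814 and 3824 UMIs and a median myeloid cell 1277 and 1426. Platelet genes stood at 4.20 and 7.91 CPM and dividing cells at 4.44% and 1.33% of NK cells. Erythroid marker genes summed to 23.6 and 112 CPM in NK cells, 11.6 and 8.98 in T cells and 99.3 and 556 in myeloid cells, and their part in the ratios below was not tested.

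The 44 genes supplied 4.92% of all NK UMIs in the control and 5.07% in the knockout. Levels can be compared between genes without dividing by length, since each transcript gives 1 tagged end. Tmsb4x, a thymosin that holds actin monomers in reserve, was far ahead at 18743 and 19947 CPM, the 3rd and 4th most abundant of all genes. Beta-actin, Actb, followed at 5931 and 6571 CPM, and a second thymosin, Tmsb10, at 3759 and 4953. Profilin 1 (Pfn1), which feeds monomers to growing ends, the second cytoplasmic actin Actg1, the myosin light chain Myl6 and the severing factor cofilin 1 (Cfl1) completed the 7 members at or above 1000 CPM in both libraries. At the other end, 1 member was almost missing from NK cells. Actn1, the crosslinker alpha-actinin 1, stood at 1.30 and 0.83 CPM, while its relative Actn4 stood at 83.6 and 74.0. How reads shared by close relatives, such as Actb and Actg1 or Myl12a and Myl12b, were assigned is not given in the sources used here, so their separate levels carry that uncertainty.

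**Figure D1:**
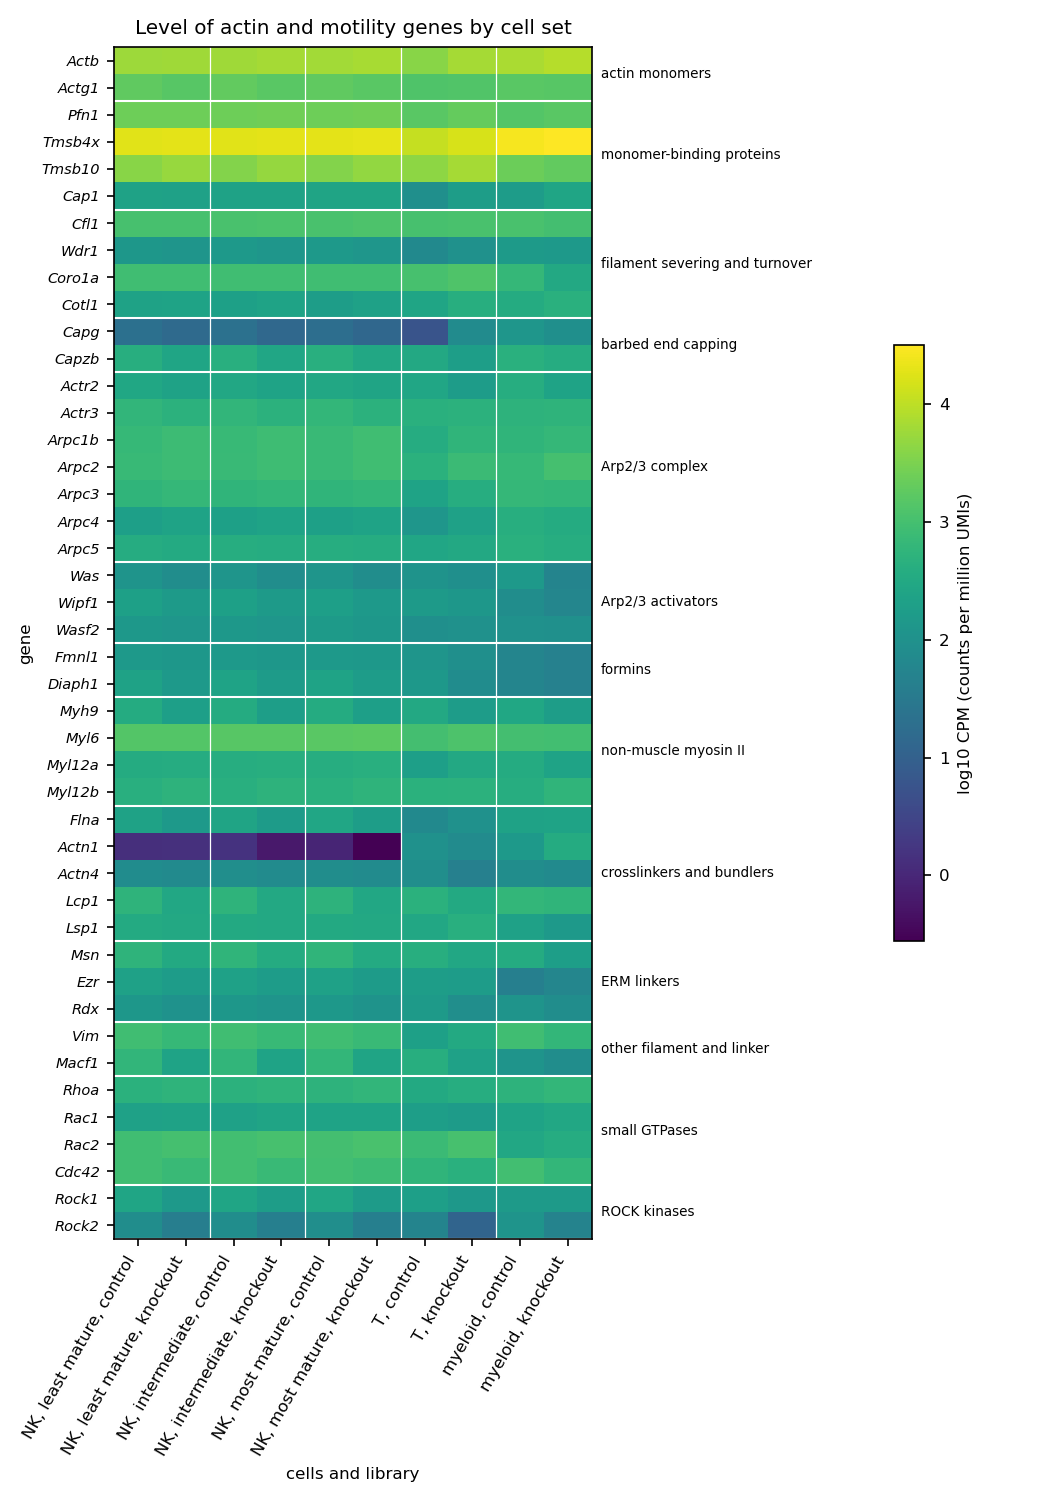
Level of each of the 44 genes (rows, grouped by role) in 3 NK maturation states, T cells and myeloid cells of both libraries (columns), as log10 CPM. Tmsb4x is the brightest row, and Actn1 is dark in every NK column and brighter, though not among the brightest rows, in T and myeloid cells.

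Actin genes are a textbook target of serum response factor, which binds the CArG box, a pair of C, 6 bases of A or T, and a pair of G. RefSeq promoter windows (build GRCm38.p6, 250 bases before to 50 after a start of the gene) were matched for 37 of the 44 members. Some members had several windows. Actb, Cotl1, Diaph1, Lsp1, Rac1, Rac2 and Rock1 were not matched. A CArG box, searched on both strands, lay in 3 of the 37 (8.11%) against 1.81% of 27025 genes with a window. The TATA motif TATAAA, also searched on both strands, lay in 4 of 37 (10.8%) against 15.7% of genes, and the ETS core GGAA in 37 of 37 against 96.5%. The windows with a CArG box belong to a branching complex subunit, a myosin light chain and an actin, and the 250 bases before each start are printed 5′ to 3′ with the box in capitals to show where it sits.
Arpc4, chr6:113377863-113378112, plus strand: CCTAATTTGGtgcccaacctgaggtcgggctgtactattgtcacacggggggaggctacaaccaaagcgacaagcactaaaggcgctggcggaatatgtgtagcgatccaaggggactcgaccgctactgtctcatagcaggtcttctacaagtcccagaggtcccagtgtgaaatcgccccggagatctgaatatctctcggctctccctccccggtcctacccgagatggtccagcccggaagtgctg
Myl6, chr10:128493010-128493259, minus strand: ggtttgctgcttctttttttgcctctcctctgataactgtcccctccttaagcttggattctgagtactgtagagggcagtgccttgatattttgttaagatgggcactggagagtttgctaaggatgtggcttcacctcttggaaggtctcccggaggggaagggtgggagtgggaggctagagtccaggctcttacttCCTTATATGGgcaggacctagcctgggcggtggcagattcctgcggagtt
Actg1, chr11:120348496-120348745, minus strand: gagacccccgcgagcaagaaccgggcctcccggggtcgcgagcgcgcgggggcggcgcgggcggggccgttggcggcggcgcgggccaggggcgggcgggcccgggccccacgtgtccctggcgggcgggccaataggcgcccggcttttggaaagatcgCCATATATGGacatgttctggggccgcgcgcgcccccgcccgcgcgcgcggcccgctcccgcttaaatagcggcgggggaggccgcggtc
The box began 250, 50 and 90 bases before the start in these 3. Myl6 had 2 windows. The printed Myl6 window lies inside the annotated gene (128490860 to 128494145, minus strand, GRCm38), so it precedes an internal start and not the annotated 5′ end. In NK cells their knockout over control log2 ratios were 0.19 for Arpc4, 0.06 for Myl6 and -0.20 for Actg1, so the genes with a box did not share a direction. A match is a description of letters and not a site in use.

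Knockout over control was then taken in NK cells. A gene was called higher or lower when its log2 ratio of CPM was at least 0.32 in size, among genes of at least 10 CPM on average, which left 43 members without Actn1. Only Tmsb10 (ENSMUSG00000079523, chromosome 6, 72957347 to 72958748, minus strand, GRCm38) was higher (1 of 43, against 15.0% of 7335 measured genes), and 15 members were lower (against 29.2% of measured genes). The median log2 ratio was -0.18 for the members and -0.07 for all measured genes. Summed UMIs of the abundant and of the scarcer members went apart, though not every member followed its sum. The 7 members at or above 1000 CPM, a split made after their values were seen, took 3.53% of control and 3.83% of knockout NK UMIs (log2 0.12), while the other 37 took 1.39% and 1.24% (log2 -0.16).

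Among monomer genes, Actb was at 5931 and 6571 CPM (log2 0.15, 0.14 to 0.16) and Actg1 at 1846 and 1604 (-0.20, -0.22 to -0.19). The actin pair thus lay on either side of 0, and neither was called. Of the monomer-binding proteins, Tmsb10 had a log2 ratio of 0.40 (0.39 to 0.41), and Tmsb4x, Pfn1 and the cyclase-associated protein Cap1 had 0.09, 0.06 and -0.02. The turnover genes also stayed near 0: Cfl1 at 0.07, its helper Wdr1 at -0.18, coronin 1A (Coro1a) at 0.01 and the coactosin-like gene Cotl1 at 0.17. Both capping genes, which stop growth at the fast end of a filament, were lower. Capzb, the beta subunit of capping protein, went from 426 to 279 CPM (-0.61, -0.64 to -0.58), and Capg, a gelsolin relative, from 20.5 to 14.3 (-0.52, -0.66 to -0.37).

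The Arp2/3 complex starts new branches from the side of a filament, and its 7 measured subunits did not move together. Arpc1b went from 718 to 847 CPM (0.24, 0.22 to 0.26), Arpc2 from 726 to 856 (0.24, 0.22 to 0.26) and Arpc4 from 208 to 237 (0.19, 0.15 to 0.23). The actin-related subunits lay on the other side, with Actr2 at 294 and 234 CPM (-0.33) and Actr3 at 603 and 492 (-0.29). Arpc3 (0.13) and Arpc5 (-0.08) lay between, and Actr2 alone of the 7 was called. The activators of the complex were all below 0. Was, the Wiskott-Aldrich syndrome protein of blood cells, went from 119 to 83.6 CPM (-0.51), its binding partner Wipf1 from 203 to 154 (-0.40), and Wasf2, the WAVE2 gene, from 143 to 126 (-0.19). The formins Diaph1 and Fmnl1, which extend unbranched filaments, had log2 ratios of -0.52 and -0.19.

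Non-muscle myosin II split between its heavy and light chains. Myh9, the heavy chain that carries the motor, went from 358 to 192 CPM (-0.90, -0.94 to -0.86). The light chains had Myl12b from 435 to 523 CPM (0.27, 0.24 to 0.29), Myl12a from 380.5 to 404 (0.09) and Myl6 from 1483 to 1547 (0.06). The heavy chain was thus called lower and no light chain was called. Crosslinkers and bundlers had Lcp1, the bundler L-plastin, from 533 to 303 CPM (-0.81, -0.84 to -0.78) and filamin A (Flna) from 248 to 166 (-0.58). Lsp1 (-0.06) and Actn4 (-0.18) were not called. Of the linkers that tie actin to the membrane, moesin (Msn) went from 552 to 343 CPM (-0.69, -0.72 to -0.66), and ezrin (Ezr, -0.32) and radixin (Rdx, -0.28) lay on either side of the size that calls a gene.

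Macf1, a very large protein that links actin to microtubules, had the lowest ratio of the set. It went from 599 to 240.2 CPM (-1.32, -1.35 to -1.29). Macf1 (ENSMUSG00000028649) lies on chromosome 4, 123349633 to 123684360, minus strand, in the GRCm38 annotation. The intermediate filament gene Vim went from 885 to 707 (-0.32, -0.34 to -0.30). The GTPase genes stayed inside the calling size, with Rhoa from 490.0 to 555 CPM (0.18, 0.16 to 0.21), Rac2 from 934 to 1055 (0.18), Rac1 from 224 to 236 (0.07) and Cdc42 from 901 to 758 (-0.25). The kinases that act below RhoA were lower. Rock2 went from 85.1 to 41.3 CPM (-1.04, -1.13 to -0.96) and Rock1 from 264 to 165 (-0.68, -0.72 to -0.64). The called members nearest the calling size were Vim and Ezr at -0.32 and Actr2 at -0.33, and the nearest not called was Actr3 at -0.29.

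Exon length moved with these ratios. Across the 43 members the Spearman correlation of the log2 ratio with exon length was -0.62, and across the 7333 measured genes with an annotated length it was -0.51, a description over genes that share the same pair of libraries. Of the 8 members of at least 7197 bases, the longest of 4 equal classes of measured genes, 6 were lower, against 56.2% of all genes of that class. In the shortest class, up to 2864 bases, 2 of 15 members were lower and 1 higher, against 6.88% and 31.4% of genes. Macf1 has 31402 bases of exon, Rock2 13897 and Myh9 12928, and Tmsb10 has 1276. When the median ratio of the 300 genes nearest in exon length was subtracted, 2 members were higher (Arpc1b at 0.38 and Rhoa at 0.47, against 15.7% of genes) and 12 were lower (against 18.7%). Those 12 were Actg1, Capg, Capzb, Was, Diaph1, Myh9, Lcp1, Msn, Ezr, Macf1, Cdc42 and Rock2, with Macf1 still lowest at -0.77 and Capzb next at -0.68. Tmsb10 came to 0.19 and Rock1 to -0.13, inside the calling size. The part of length in the unadjusted ratios was not tested beyond this subtraction.

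**Figure D2:**
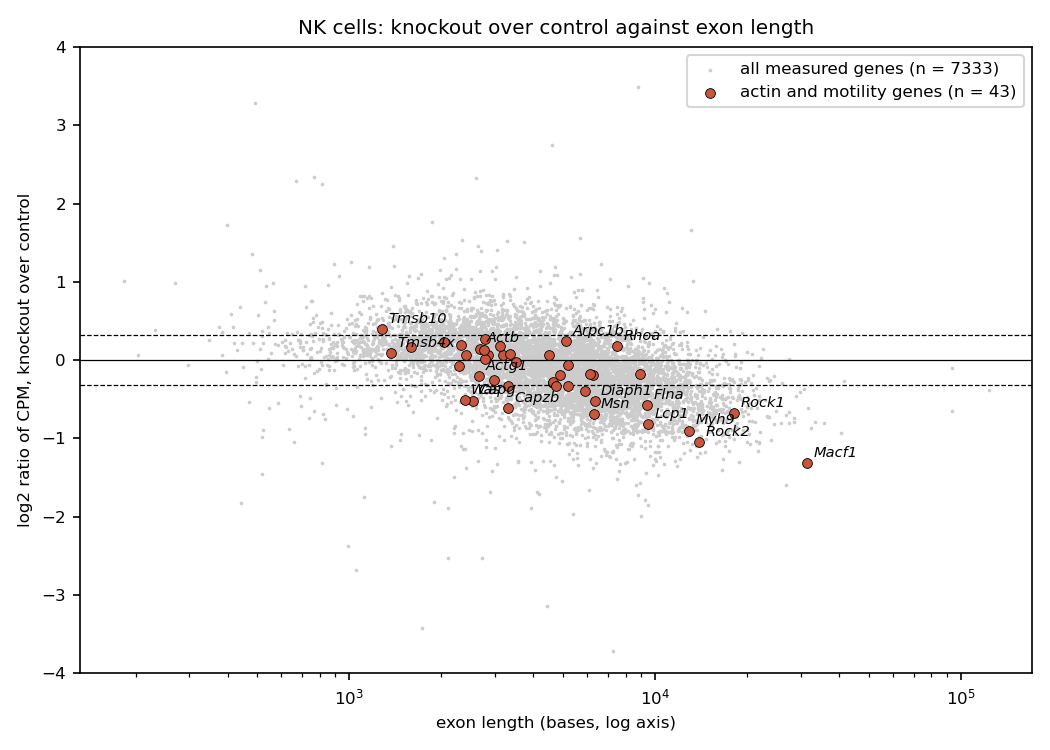
Log2 ratio of CPM, knockout over control, in NK cells against exon length on a log axis, for 43 members (red) and 7333 measured genes (grey); dashed lines mark the calling size of 0.32. Long genes lie lower as a whole, and Macf1, at -1.32, is the longest and lowest member.

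Among other genes of the pathway, 91 listed by function, more were also lower than higher. Of 79 measured, 2 were higher and 38 lower by the size that calls a gene (against 15.0% and 29.2% of measured genes). Their median log2 ratio was -0.28. After the exon length adjustment 3 were higher and 23 lower (against 15.7% and 18.7%). The lowest of at least 50 CPM were the membrane skeleton gene Sptbn1 (309 and 139 CPM, -1.16), the kinase gene Slk (85.8 and 40.5, -1.08) and Elmo1, partner of the Rac activator DOCK2 (134 and 70.3, -0.93). The highest were the GTPase-activating protein gene Arhgap45 (333 and 420 CPM, 0.33), the WAVE complex subunit Brk1 (215 and 262, 0.29) and the alternative Arp2/3 subunit Arpc1a (48.1 and 57.8, 0.26). Their median exon length was 6114 bases against 3494 for the members.

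Maturation was the next comparison. NK cells pass from a stage rich in CD27 towards one rich in CD11b, and the sorted cells carry both. Each cell was scored on 8 mature and 8 immature marker genes after thinning to 2000 UMIs, which left 10058 and 8737 cells, and each library was divided into a least mature, an intermediate and a most mature state. No member of the set is in the score. The states are ranges of a continuous score: 10.5% and 12.2% of cells lay within 0.02 of a boundary. Marker genes outside the score followed it, with mature ones at 17008 CPM in the least mature and 22512 in the most mature state of the control and 20406 and 28953 in the knockout. Immature ones went the other way, from 656 to 350 CPM and from 497 to 185. Ccl5 made up most of the mature sums (14629 and 19075 CPM in the least and most mature control states). The other mature genes, Lgals1, Emp3, Irf8 and Gzmb, also rose in each library. Of the immature genes, Lef1 was nearly level in the control (66.9 and 64.5 CPM). Erythroid marker genes stood at 19.8 CPM in the least and 31.5 in the most mature state of the control and at 26.6 and 177 in the knockout, and their part was not tested.

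Between the most and least mature states 0 of 43 members were higher or lower in the control (against 2.83% and 2.35% of measured genes) and 0 of 43 in the knockout (against 4.33% and 4.12%). No test stands behind these counts, and the log2 ratios ranged from -0.28 to 0.23 and from -0.22 to 0.31. The sort on CD27 and CD11b may have narrowed the range of maturity, so the counts hold for the sorted cells alone. Below the calling size most members leaned the same way. Of 42 members of at least 50 CPM, 32 were above 0 in both libraries and 6 below 0 in both, against 47.7% and 24.9% of 2832 genes at that level, a level chosen after the data were seen. That lean depended on the scaling: with mitochondrial and ribosomal protein genes left out of the total, 19 of 42 were above 0 in both libraries (against 26.4% of genes) and with median-of-ratios scaling 28 of 42 were (against 36.6%).

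Filamin A had the highest ratio of the members. Flna stood at 229.9, 248 and 270.4 CPM from the least to the most mature control state and at 149, 168 and 185 in the same knockout states (log2 0.23, 0.18 to 0.29, and 0.31, 0.22 to 0.40, most over least). It climbed across all 3 states in each library, although every knockout value was under the lowest control value. Myl6 stood at 1369.9, 1499.7 and 1609.5 CPM and at 1417, 1553 and 1705 (0.23 and 0.27). Myl12a (0.14 and 0.19), Actb (0.13 and 0.19), Cap1 (0.12 and 0.18) and Rhoa (0.11 and 0.19) followed. A filament crosslinker, a pair of myosin light chains, an actin, the monomer-binding Cap1 and the GTPase gene Rhoa thus led the list. The intervals of Flna, Myl6, Myl12a, Actb and Rhoa lay above 0 in both libraries. The other myosin and kinase members had lower ratios, with Myh9 at 0.05 and 0.004 and Myl12b at 0.08 and 0.02. Rock2 had 0.08 and 0.008 and Rock1 0.08 and 0.16.

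Cotl1, whose product binds filament actin, had the lowest ratio in the control and the lowest mean of both libraries. Capg, under 50 CPM, had the lowest in the knockout, with intervals that held 0 in both (-0.13, -0.34 to 0.07, and -0.22, -0.54 to 0.10). Cotl1 stood at 223, 207 and 184 CPM in the control and at 240.2, 238 and 215 in the knockout (-0.28, -0.34 to -0.21, and -0.16, -0.24 to -0.08). Tmsb10 stood at 3936, 3680 and 3640 CPM and at 5152, 4885 and 4799 (-0.11 and -0.10). Tmsb10 therefore parted from Tmsb4x, whose ratios were 0.09 and 0.05. Of members of at least 50 CPM, Ezr (-0.03 and -0.08), Lsp1 (-0.07 and -0.02), Wipf1 (-0.02 and -0.02) and Arpc3 (0.00 and -0.04) were next, and the knockout intervals of these 4 held 0. Among other actin genes the lowest were Ssh2, a cofilin phosphatase (-0.19 and -0.39), the tropomyosin gene Tpm1 (-0.27 and -0.26) and Pstpip1 (-0.25 and -0.28), and the highest were Slk (0.12 and 0.41), Stk10 (0.30 and 0.21) and the small GTPase gene Rhof (0.23 and 0.28). Slk and Stk10 are kinases known to phosphorylate the ezrin, radixin and moesin linkers.

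**Figure D3:**
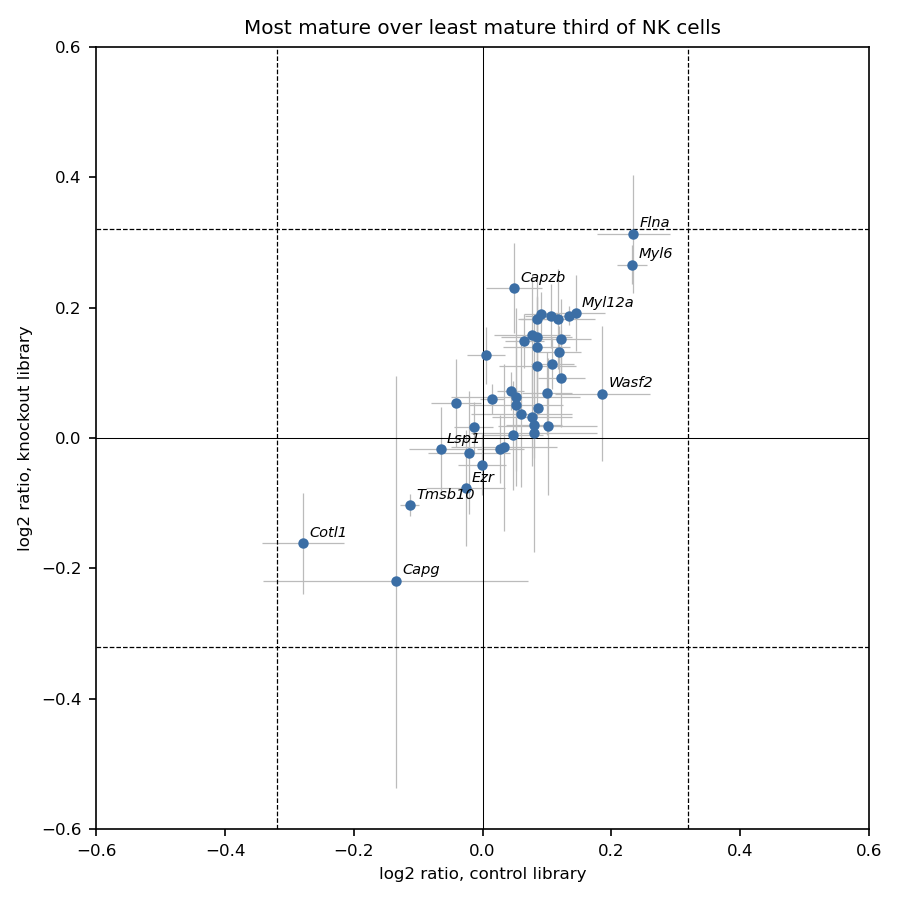
Log2 ratio of CPM, most over least mature state of NK cells, in the control (horizontal) and knockout library (vertical) for 43 members, with 95% counting intervals; dashed lines mark 0.32. Most points lie above 0 on both axes, none passes a dashed line, Flna is highest on both axes, and Cotl1 is lowest in the control and Capg in the knockout.

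The knockout over control ratios were alike in the 3 maturation states. In the least mature, intermediate and most mature states 14, 13 and 13 of 43 members were lower (against 29.2%, 29.0% and 31.3% of genes), and 1 was higher in each (against 15.0%, 15.1% and 15.3%). The same sign held in all 3 states for 41 of the 43, against 84.8% of 7168 genes measured in all 3. Macf1 had -1.31, -1.34 and -1.34, Rock2 -1.01, -1.04 and -1.08, and Tmsb10 0.39, 0.41 and 0.40. The states are cut from the cells of the same pair of libraries, so they are no separate samples. The cuts were set within each library, at scores of -0.20 and 0 in the control and -0.31 and -0.087 in the knockout. States of the same name are therefore not matched in maturity. Over all NK cells the mature score genes summed to 1095 and 918 CPM and the immature ones to 2091 and 2845. The part of maturity in the knockout over control ratios was not tested.

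T cells that came through the sort gave a second lineage. In the control 1 of 44 members was higher in T than in NK cells and 27 were lower (against 25.9% and 40.8% of measured genes), and in the knockout 6 were higher and 20 lower (against 20.8% and 42.8%). Few cells stand behind this, 26 and 68. With a counting interval clear of 0 also required, a rule added after the data were seen, the counts were 1 and 22 in the control (against 7.57% and 11.2%) and 6 and 16 in the knockout (against 8.21% and 15.6%). Such a rule passes abundant genes more easily, and members are abundant.

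Actn1 (ENSMUSG00000015143, chromosome 12, 80167547 to 80260371, minus strand, GRCm38) had the highest ratio of T over NK cells. Near absent from NK cells, it reached the minimum of 10 CPM on average only through the T or myeloid cells, so it had to differ, and it is the 1 member counted as higher in control T cells. It had 17 UMIs in 10 of 26 control T cells (98.9 CPM) and 26 UMIs in 13 of 68 knockout T cells (77.8 CPM). In NK cells it had 84 and 31 UMIs, in 0.73% and 0.35% of cells. The log2 ratios of T over NK cells were 6.25 (5.40 to 7.01) and 6.56 (5.75 to 7.36). Myeloid cells were likewise high, at 142 and 364 CPM, in 9 of 41 and 58 of 151 cells. Its relative Actn4, which bundles filaments in the same way, had 83.6 and 74.0 CPM in NK cells, 87.3 and 44.9 in T cells and 85.1 and 72.2 in myeloid cells.

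Vim and Flna were the members furthest below NK cells in control T cells. Vim stood at 209.5 and 323 CPM in T cells against 885 and 707 in NK cells (log2 -2.08, -2.59 to -1.61, and -1.13, -1.42 to -0.86), and Flna at 69.8 and 102 against 248 and 166 (-1.83 and -0.71). The 7 Arp2/3 subunits were all below 0, led by Arpc3 at 239 and 383 CPM (-1.26 and -0.71) and Arpc1b at 373 and 566 (-0.95 and -0.58), with Arpc2 at 477 and 784 and Arpc4 at 128 and 215. Tmsb10, at 4446 and 6556 CPM, went the other way (0.24, 0.14 to 0.34, and 0.40, 0.34 to 0.47), while Tmsb4x, at 11512 and 15545, was lower (-0.70 and -0.36). Tmsb4x stayed the more abundant thymosin by a narrower margin, with 2.59 UMIs of Tmsb4x for each of Tmsb10 in control T cells and 4.99 in control NK cells. Coro1a was at 1048 and 1275 CPM (0.25 and 0.52) and Cotl1 at 256 and 419 (0.31, -0.15 to 0.74, and 0.86, 0.60 to 1.10).

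Myeloid cells carried macrophage genes and gave a different balance. In the control 7 of 44 members were higher than in NK cells and 17 lower (against 38.9% and 42.3% of measured genes), and in the knockout 10 were higher and 17 lower (against 32.1% and 47.1%). With an interval clear of 0 also required, 5 were higher and 11 lower in the control (against 14.7% and 8.61%) and 9 and 14 in the knockout (against 20.4% and 23.8%). The median depth of myeloid cells was under that of NK cells, so low members rest on few UMIs. Capg, known as a macrophage capping protein, stood at 128 and 90.2 CPM from 9 and 25 UMIs, against 20.5 and 14.3 in NK cells (2.64, 1.51 to 3.57, and 2.65, 2.01 to 3.23). Cotl1 (355 and 451 CPM, 0.78 and 0.96), Arpc4 (411 and 349.9, 0.99 and 0.56), Tmsb4x (26374 and 31485, 0.49 and 0.66) and Actb (7292 and 8788, 0.30 and 0.42) were also above NK cells. With at least 1000 genes a cell and at most 5% mitochondrial UMIs required, 2 and 18 myeloid cells were left, and the control ratios of Tmsb4x (-0.37), Cotl1 (-1.87) and Actb (-0.31) changed sign while the knockout ratios stayed above 0 (0.57, 1.10 and 0.31). In the wider list Marcks, whose product binds actin at the membrane, had 766 and 1162 CPM in myeloid cells and 2.20 and 3.22 in NK cells. Marcks reached the minimum of 10 CPM on average only through the myeloid cells, so it had to be higher there.

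Members below NK cells in myeloid cells included both formins and Rac2, the Rac form of blood cells. Rac2 stood at 298 and 372 CPM against 934 and 1055 (-1.65, -2.34 to -1.04, and -1.51, -1.80 to -1.23), while the widely made Rac1 stood at 241 and 296 against 224 and 236 (0.11 and 0.33). Under the same stricter filter the Rac1 ratios were -0.42 and -0.10. Diaph1 was at 56.7 and 46.9 CPM (-2.06 and -1.81) and Fmnl1 also at 56.7 and 46.9 (-1.41 and -1.50). Macf1 stood at 113 and 83.0 CPM (-2.40, -3.61 to -1.42, and -1.53, -2.19 to -0.95), with 7 of its 8 control UMIs in 1 cell. Ezr (42.6 and 57.7 CPM from 3 and 16 UMIs, -2.34, -4.62 to -0.79, and -1.58, -2.38 to -0.88), Wipf1 (-1.26 and -1.42) and Tmsb10 (2256 and 1916 CPM, -0.74 and -1.37) were lower too. Relative to NK cells, myeloid cells thus held more of Tmsb4x, other than in the 2 control cells of the stricter filter, and less of Tmsb10, the reverse of T cells.

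**Figure D4:**
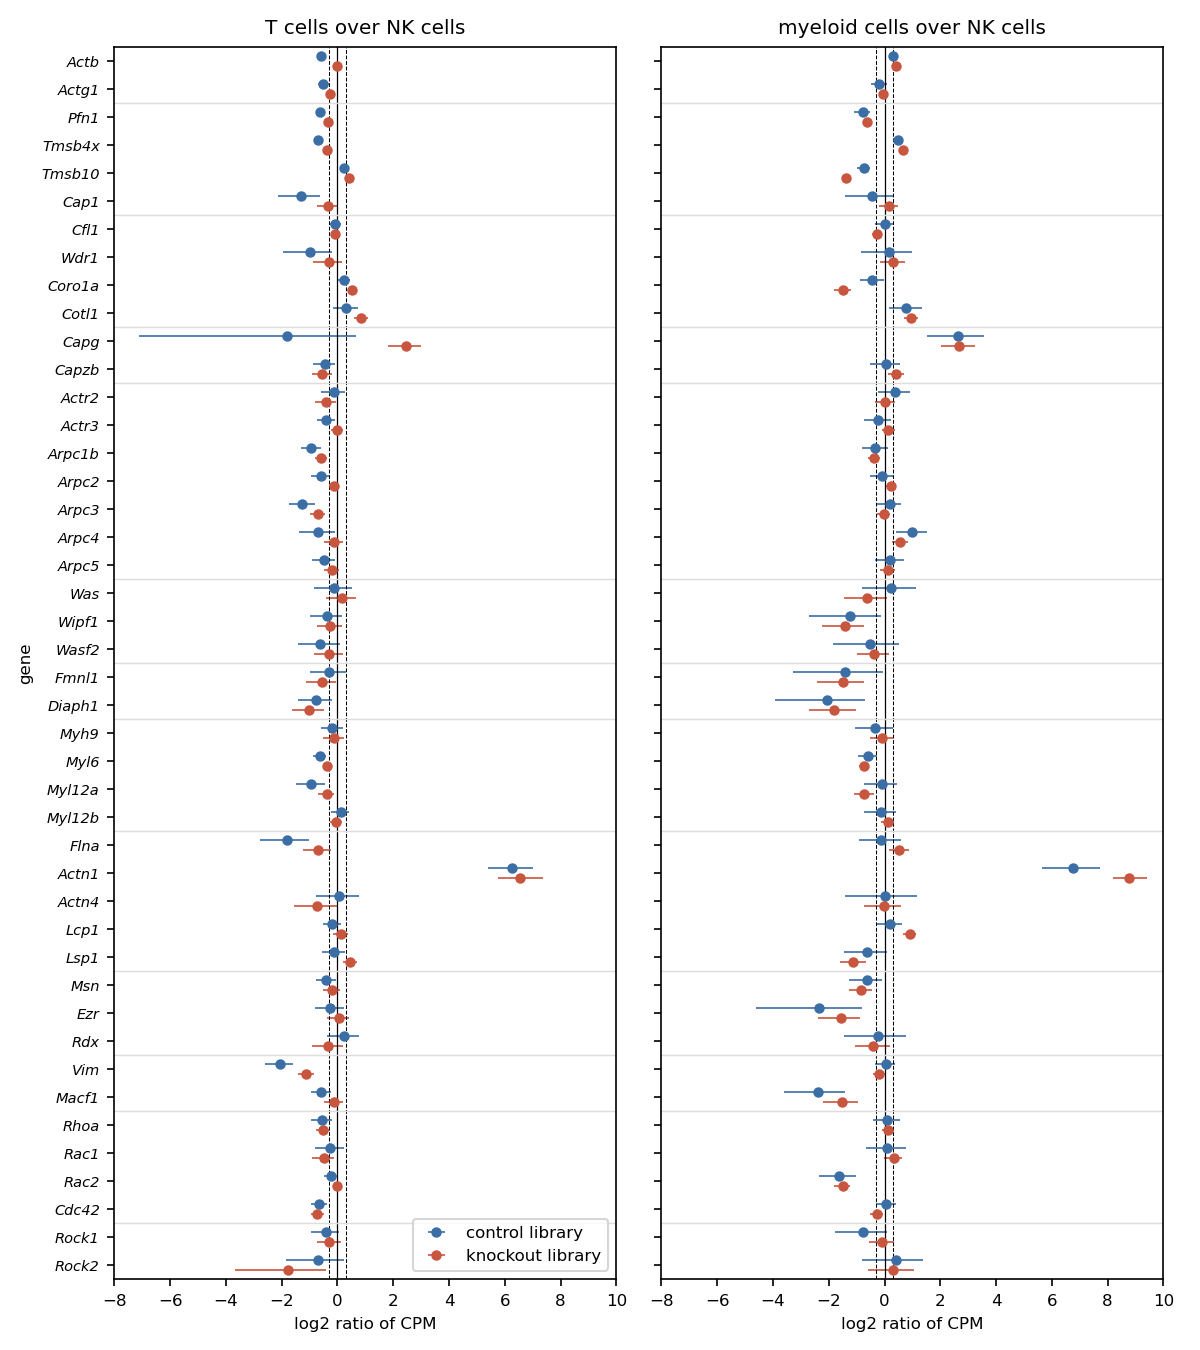
Log2 ratio of CPM of T cells (left) and myeloid cells (right) over NK cells for 44 members, in the control (blue) and knockout library (red); bars are 95% counting intervals, cut at the edge of the panel, and dashed lines mark 0.32. Actn1 lies far to the right in both panels, and Vim in T cells and Macf1, Ezr and Diaph1 in myeloid cells lie left.

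The scale bore on these lineage counts. Median-of-ratios scaling takes the median of all measured genes as 0, and on total UMIs that median was -0.13 and -0.21 for T over NK cells and 0.11 and -0.22 for myeloid over NK cells. The median of the members was -0.47 and -0.29 for T cells and -0.11 and -0.07 for myeloid cells. With the median of all genes at 0, the median of the members came to -0.35 and -0.08 in T cells and to -0.22 and 0.15 in myeloid cells, a change of sign in the knockout. With mitochondrial and ribosomal protein genes left out of the total, the members' median in knockout T cells was -0.01.

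Remaining members with named extremes above had the following levels outside NK cells. In T cells Myh9 stood at 314 and 177 CPM, Lcp1 at 466 and 329, Msn at 419 and 296, Rock1 at 198 and 135 and Rock2 at 52.4 and 12.0, from 9 and 4 UMIs. Myl12b stood at 471 and 503, Myl6 at 955 and 1197, Myl12a at 198 and 308, Rhoa at 332 and 389, Cap1 at 93.1 and 183 and Lsp1 at 297 and 428. In T cells the kinases and the myosin heavy chain had their lower value in the knockout library, and the light chains their higher value. In myeloid cells Myh9 stood at 284 and 180.4, Lcp1 at 610.1 and 566, Msn at 355 and 191, Rock1 at 156 and 155 and Rock2 at 113 and 50.5. Myl12b stood there at 397 and 570.0, Myl6 at 979 and 927, Myl12a at 355 and 242 and Rhoa at 525 and 606. The light chain genes thus differed in direction between the libraries in myeloid cells.

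Cre driven from NKp46 is not active in most T or myeloid cells, so the knockout over control ratio was also taken there. In T cells 18 of 44 members were higher and 13 lower (against 29.3% and 42.2% of genes), and with an interval clear of 0 the counts were 16 and 8 (against 3.77% and 7.36%). In myeloid cells 6 were higher and 14 lower (against 31.2% and 46.6%). Of the 15 members lower in NK cells, 12 were below 0 in T cells (against 78.9% of the 1838 genes lower in NK cells and measured in T cells), 7 of them with an interval clear of 0 (Capzb, Actr2, Myh9, Lcp1, Msn, Macf1 and Rock2, against 19.1%). In myeloid cells 13 of the 15 were below 0 (against 65.5% of 1688 such genes), 3 with an interval clear of 0 (Was, Msn and Vim, against 8.89%). These ratios come from the same pair of libraries, and abundant genes pass the interval rule more easily. Whether the counts are particular to the members was not tested. Macf1 went from 402 to 221 CPM in T cells (-0.86, -1.35 to -0.36) and from 113 to 83.0 in myeloid cells (-0.45, -1.66 to 0.92). Tmsb10 was higher in T cells (4446 and 6556 CPM, 0.56, 0.44 to 0.68) and not in myeloid cells (-0.24).

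Some members not called in NK cells were higher in T cells of the knockout library, and the difference between T and NK cells was not tested. Actb went from 3957 to 6571 CPM (0.73, 0.61 to 0.86), Arpc2 from 477 to 784 (0.72) and Cap1 from 93.1 to 183 (0.97). Genes found in antigen-experienced T cells, picked after the values were seen, did not all go one way in the same cells. Lgals1 stood at 81.5 and 398 CPM, S100a6 at 46.6 and 332 and S100a4 at 23.3 and 290.4. Ly6c2 went the other way (448 and 248 CPM, -0.85, -1.32 to -0.38), and Gzma (-0.47, -1.35 to 0.43) and Cxcr6 (0.14, -0.45 to 0.74) had intervals that held 0. Il7r stood at 727 and 835 CPM and Cd4 at 81.5 and 83.8, and the intervals of both ratios held 0. The part of T cell makeup in these ratios was not tested.

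The share of a cell's UMIs that came from the whole set, after thinning to 2000 UMIs, summed up the states. Its median was 4.80%, 4.85% and 4.95% from the least to the most mature NK state of the control and 4.95%, 5.0% and 5.15% in the knockout. The middle 90% of control NK cells lay between 3.50% and 6.60%, so the states overlapped. T cells had medians of 3.35% and 4.32%. The 6 control and 39 knockout myeloid cells with enough UMIs had 6.90% and 5.85%, and most myeloid cells, 35 and 112, were too shallow for this measure. From the untouched counts the shares were 3.49% and 4.53% in T cells and 5.31% and 5.85% in myeloid cells.

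**Figure D5:**
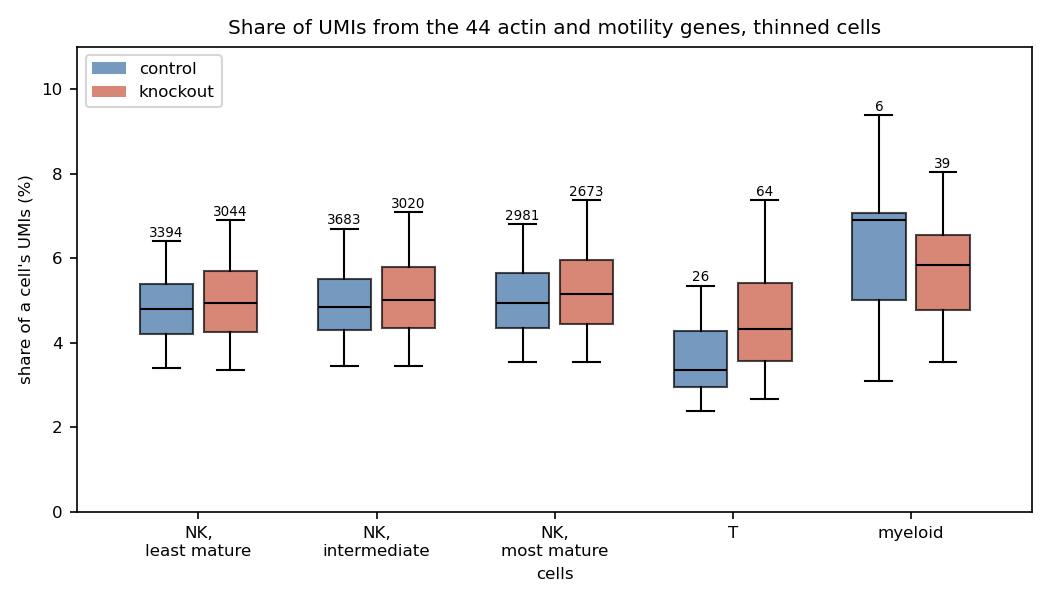
Share of a cell's UMIs from the 44 genes after thinning to 2000 UMIs, by cell set, for control (blue) and knockout (red); boxes span the quartiles with the median, whiskers the 5th to 95th percentile, and numbers above give the cells. NK states overlap around 5.0%, control T cells lie lower and myeloid cells higher.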

How the data were processed

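The study made droplet libraries of transcript ends (Single Cell 3' v2 chemistry, per the labels). Values in the deposited matrices are raw counts of UMIs, gene by barcode, that the authors had not normalized. The submitters' processing notes name STAR, Cell Ranger 3.0.0, Seurat and the build GRCm39; a GRCm38 annotation was used here for gene positions and exon lengths alone, matched by gene ID. The members, role lists and markers were chosen with earlier results of these data known.

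Barcodes needed at least 500 genes and no more than 10% mitochondrial UMIs, leaving out 857 control and 592 knockout barcodes. NK cells had at least 3 UMIs over Ncr1, Klrb1c, Klre1, Klra8 and Klra4, T cells at least 3 over Cd3d, Cd3e, Cd3g, Cd5, Cd6 and Trac, and myeloid cells at least 5 over C1qa, C1qb, C1qc, Csf1r, Lyz2 and another gene that is not reported here. NK cells had at most 2 UMIs of T or B cell markers and at most 1 of myeloid or platelet markers; T and myeloid cells had at most 2 of the NK markers. No doublet caller was run, and 671 control and 886 knockout cells fitted no class.

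UMIs were summed per library and class and scaled to CPM. Intervals (95%, counting error only) are exact Poisson for levels and, for ratios, exact binomial given the summed count. A count of 0 was given a set limit of 3 UMIs and not the exact interval. The maturation score is the mean log count of Itgam, Klrg1, Cma1, Zeb2, S1pr5, Cx3cr1, Prdm1 and Ly6c2 minus that of Cd27, Ltb, Ctla2a, Cxcr3, Tcf7, Emb, Cd7 and Thy1. Members named with full values are the 6 highest and 6 lowest of at least 50 CPM by knockout over control and by maturation, and 3 at each end for other actin genes. Marcks was named outside this rule. Chosen after the data were seen were the interval rule, the splits at 1000 CPM and at 50 CPM for signs, the width of 0.02 around a boundary, the T cell genes and the genes whose UMIs per cell are given. Counting and calling were tested on simulated data. Python 3.11.15 was used with pandas 2.3.3, numpy 2.4.6, matplotlib 3.10.9 and scipy 1.17.1.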

Additional observations from a re-analysis of the deposited data

Results flagged for a closer look

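Knockout over control went opposite ways in NK and T cells for 2 members with counting intervals clear of 0 in both. The difference was not tested, since each group is 1 library. Capg, a capping protein, had a log2 ratio of -0.52 in NK cells and 3.74 (1.14 to 9.10) in T cells, from 1 UMI in 26 control cells and 26 UMIs in 10 of 68 knockout cells, 14 of them in the 3 richest cells. In T cells Capg reached the minimum of 10 CPM on average only through the knockout library, so its ratio there had to be above 0. Vim, the intermediate filament gene, had -0.32 in NK cells and 0.63 (0.07 to 1.21) in T cells, from 36 UMIs in 13 control cells and 108 UMIs in 26 knockout cells, 52 of them in the 3 richest. In the same T cells S100a4 had a log2 ratio of 3.64, S100a6 of 2.84 and Lgals1 of 2.29, while Ly6c2 had -0.85, Gzma -0.47 and Cxcr6 0.14, genes picked after the values were seen, and their part in these ratios was not tested.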

How the results depend on the processing

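No paired analysis was possible because each group has 1 library. For the same reason no replicate could be left out. Over 11 alternatives for each comparison and 5 more for maturation, no member called for knockout over control in NK cells changed direction, and no member was called by maturation in the main analysis, so none could. For knockout over control in NK cells, all 159 values of the 16 called members kept their direction and 141 stayed past the calling size; Capg, Capzb, Diaph1, Lcp1, Macf1, Msn, Myh9, Rock2 and Was passed it under every one. The counts of called members that moved by over 1.5 times were these. Knockout over control in NK cells gave 2 higher with median-of-ratios scaling and 2 with the exon length adjustment, and 0 higher and 7 lower at a log2 size of 0.58. Maturation, at 0 in the main analysis, gave 1 lower in the control with mitochondrial and ribosomal protein genes left out of the total, 1 lower in the control between the top and bottom 20% of cells, 1 higher in the knockout after thinning and 2 higher in the knockout between the top and bottom 20% of cells, and 1 lower in each library, Actn1, with no minimum level. T over NK cells in the control gave 2 higher with stricter gates, 2 without dividing cells, 5 after thinning, 5 with median-of-ratios scaling, 5 with the length adjustment, and 7 higher and 17 lower without mitochondrial and ribosomal protein genes. In the knockout it gave 10 lower with median-of-ratios scaling, 10 with the length adjustment, 7 without mitochondrial and ribosomal protein genes, and 3 higher and 8 lower at 0.58. Myeloid over NK cells in the control gave 15 higher after thinning, from 6 cells, 4 higher at 0.58 and 11 lower with an interval clear of 0 also required. In the knockout it gave 18 higher with median-of-ratios scaling, 17 with the length adjustment and 5 at 0.58. Of 1037 values of members called in T or myeloid over NK cells, 23 changed sign. The stricter cell filter left 2 control and 18 knockout myeloid cells and 24 and 23 T cells. It gave Tmsb4x -0.37, Coro1a 0.28, Cotl1 -1.87, Arpc1b 0.13, Lsp1 0.92, Msn 0.022 and Rock2 -0.60 in control myeloid cells, Was 0.060, Lsp1 0.57 and Rac1 -0.10 in knockout myeloid cells and Myl12a 0.052 in knockout T cells. Thinning, which left 6 control and 39 knockout myeloid cells, gave Coro1a 0.62, Actr2 -0.22, Arpc1b 0.061, Wasf2 0.17, Myh9 0.22 and Myl6 0.0021 in control and Was 0.12 in knockout myeloid cells, and Capzb 0.062, Wipf1 0.011 and Rock2 0.42 in control and Wdr1 0.45 in knockout T cells. Stricter gates gave Rock2 -0.12 in control myeloid cells. The cause was not tested where a scaling moved a count. Depth limits the T and myeloid cells most. A count of 0, taken as up to 3 UMIs, allows 17.5 CPM in control T cells and 42.6 CPM in control myeloid cells.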
